A study of Mus musculus with 8 samples.

Results

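The nuclear genes for the proteins of the mitochondrial ribosome were followed through RNA-seq libraries of sorted cardiac progenitor cells. The members were all genes of the table whose symbol begins with Mrpl or Mrps followed by a digit, without pseudogene symbols, and 75 of the 16302 genes in the table met this rule. The cells were taken from mouse embryos at E9.5 (embryonic day 9.5) by micro-dissection around the second heart field (SHF), a pool of cardiac progenitors that adds cells to both poles of the heart tube. GFP+ cells carried the Hoxb1GFP reporter, which marks cells with Hoxb1 activity and labels the posterior SHF. Tomato+ cells came from Mef2c-Cre;RosatdT embryos, in which an anterior heart field enhancer of Mef2c drives Cre recombinase and so switches on tdTomato in those cells and in all their descendants. Each positive population gave 3 libraries, and the reporter-negative cells gave 1 library per line (GFP- and Tomato-). All groups were of the same stage and tissue, embryos were pooled before sorting, and each library was amplified from 2 ng of RNA by a method that keeps no strand information. Line, reporter and population differed together, so an effect of the GFP allele or of the Cre transgene on the members cannot be told apart from a difference between the populations.

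The mitochondrial ribosome (mitoribosome) translates the few proteins encoded by mitochondrial DNA, which are core subunits of the respiratory chain and of ATP synthase. Its ribosomal RNAs are transcribed in the organelle, whereas all of its proteins are encoded in the nucleus, made in the cytosol and imported. Many of these proteins have counterparts in bacterial ribosomes, and the others were acquired by mitochondria. In humans, defects in several of them cause disease of energy-demanding tissue such as heart muscle.

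The libraries held 22668185 to 41597870 reads on genes, of which 30.6% to 49.3% lay on the mitochondrial ribosomal RNAs, with the highest share in Tomato-. Replicates 1 and 3 of each group were nearly alike. A chi-square of their reads, divided by its degrees of freedom, was 2.35 for this pair in GFP+ cells and 2.38 in Tomato+ cells, against 72.4 to 93.0 for pairs with replicate 2, and results are therefore also given with replicates 1 and 3 averaged. The labels do not say whether the replicates were separate pools of embryos, so the p-values reflect a spread between libraries that may be technical only. All 8 SHF markers in the table, Hoxb1 and Mef2c among them, were higher in GFP+ than in Tomato+ cells. Markers of other cell types differed too. The 10 erythroid markers summed to 944 to 1362 normalized reads in GFP+ libraries and 113687 to 138332 in Tomato+ libraries, with Gata1 at 0 in GFP+ replicates 1 and 3 and Klf1 at 0 in GFP+ replicate 2, and all 10 were lower in GFP+. The 10 neuron markers summed to 4630 to 4822 against 32281 to 32791, and all 10 were lower. Of 10 cardiomyocyte markers 9 were higher, with sums of 30709 to 35692 against 4332 to 4874, and no marker of this list was at 0 in these 6 libraries. All 7 epithelial markers were higher, with sums of 7121 to 8006 against 776 to 970. Of 7 endothelial markers 4 were lower, with sums of 1587 to 1784 against 2396 to 2749. Of 6 macrophage markers 5 were lower, with sums of 193 to 291 against 1296 to 1577 and Tyrobp at 0 in GFP+ replicates 1 and 3, and of 5 neural crest markers 2 were lower, with sums of 2999 to 3084 against 6463 to 6988. Fewer cells of a type and less RNA per cell cannot be told apart in such bulk libraries, and the part of these cell types in the values of the members was not tested.

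Promoter sequences were available for 67 of the 75 members (RefSeq, GRCm38.p6, 250 bases before to 50 bases after the annotated start). Genes for mitochondrial proteins often have promoters without a TATA box, with sites for ETS-family factors such as GABP and for NRF1 and YY1. The core letters CCGGAAG of an ETS site, read on both strands, stood in 24 of the 67 promoters (35.8%), against 9.93% of all 27025 promoters and 18.9% of the 10438 promoters of tested genes. The NRF1 letters GCATGCGC stood in 8 (11.9%), against 3.05% of all promoters and 5.82% of those of tested genes. The YY1 letters AAGATGG stood in 13 (19.4%), against 7.28% and 8.11%. The first and last of these strings can share the letters AAG. The general promoter strings were not more frequent in the members: CCAAT stood in 26 (38.8%, against 42.8% of tested genes), and TATAAA stood in 5 (7.46%, against 8.96%). At least 1 of the ETS, NRF1 and YY1 strings stood in 36 promoters (53.7%), against 29.2% of tested genes. Only these exact strings were searched, so sites spelled otherwise were not counted. Such matches are letters in a window, and binding was not measured.

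Windows of 170 bases before to 30 bases after the RefSeq start are shown for 3 members with levels well above those of Tomato+ cells in GFP+ cells (Mrpl44, Mrps7, Mrpl45) and 2 with levels below (Mrpl52, Mrpl33), to show promoters of members called in either direction. They were chosen after their values were seen, and lie on GRCm38 at chr1:79775848-79776047, chr11:115603970-115604169, chr11:97315546-97315745, chr14:54426739-54426938 and chr5:31613781-31613980, all on the plus strand. Capitals mark the ETS, NRF1 and YY1 letters on either strand.
Mrpl44: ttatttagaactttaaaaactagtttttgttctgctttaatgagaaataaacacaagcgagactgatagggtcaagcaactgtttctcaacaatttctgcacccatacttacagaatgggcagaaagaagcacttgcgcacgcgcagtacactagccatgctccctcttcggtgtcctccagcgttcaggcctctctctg
Mrps7: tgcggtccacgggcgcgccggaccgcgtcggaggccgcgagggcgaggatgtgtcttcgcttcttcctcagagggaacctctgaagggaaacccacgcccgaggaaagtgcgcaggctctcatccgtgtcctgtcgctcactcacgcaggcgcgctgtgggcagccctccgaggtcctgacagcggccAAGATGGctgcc
Mrpl45: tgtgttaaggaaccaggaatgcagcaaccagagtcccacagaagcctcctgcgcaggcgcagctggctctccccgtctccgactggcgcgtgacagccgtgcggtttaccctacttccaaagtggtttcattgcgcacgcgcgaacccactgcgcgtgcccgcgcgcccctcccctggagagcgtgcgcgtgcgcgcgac
Mrpl52: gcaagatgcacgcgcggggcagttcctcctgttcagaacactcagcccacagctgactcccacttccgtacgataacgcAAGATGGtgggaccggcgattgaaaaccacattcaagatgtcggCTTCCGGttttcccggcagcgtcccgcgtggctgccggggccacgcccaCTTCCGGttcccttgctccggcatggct
Mrpl33: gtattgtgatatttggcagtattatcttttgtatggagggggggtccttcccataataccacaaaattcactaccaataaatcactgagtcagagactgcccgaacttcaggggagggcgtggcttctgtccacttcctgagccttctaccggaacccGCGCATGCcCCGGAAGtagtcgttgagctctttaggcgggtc

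The Mrps7 window holds a YY1 string just after the start. The Mrpl52 window holds 2 ETS strings on the opposite strand and a YY1 string, and the Mrpl33 window holds an NRF1 string followed by an ETS string. The same window of Mrpl20, also lower in GFP+ cells, holds none of the letters, nor do those of the higher members Mrps5, Mrpl37 and Mrpl46. Across the members with a promoter, the letters occurred beside calls of either kind. ETS letters stood in 5 of 17 members called higher in GFP+ cells, in 2 of 4 called lower and in 17 of 46 not called. NRF1 letters stood in 0, 1 and 7 of the same groups, and YY1 letters in 4, 1 and 8. Sites spelled otherwise were not counted. The windows of Mrpl44 and Mrpl45, both called higher, hold GCACGCGC, which differs from the NRF1 string by 1 letter. The 0 of the higher members thus holds for the exact string only. The median log2 fold change of GFP+ over Tomato+ cells was 0.27 in members with ETS letters and 0.28 in those without, 0.14 and 0.29 for NRF1 letters, and 0.23 and 0.28 for YY1 letters. It was 0.12 and 0.32 for CCAAT and 0.59 and 0.27 for TATAAA, the latter on 5 members with the letters. These differences were not tested.

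Transcripts of all 75 members were present in every library, and none was at 0 anywhere. The mean over the 8 libraries ran from 62.4 normalized reads for Mrpl12 to 1246 for Mrpl39. Per kilobase of exon, the highest mean levels were those of Mrpl18 (534 normalized reads per kilobase), Mrpl39 (492) and Mrpl34 (428). The lowest were those of Mrpl23 (13.0), Mrpl48 (32.5) and Mrps26 (32.9). These levels depend on the annotated exon length, which counts exons of all isoforms, and Mrpl48 has 8152 bp of annotated exon while Mrpl34 has 607. The spread over the 8 libraries, as a coefficient of variation, ran from 8.58% for Mrps15 to 89.5% for Mrps28.

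Summed over the 75 members, the transcripts came to 32267, 32423 and 32929 normalized reads in the GFP+ libraries and to 26010, 28611 and 26282 in the Tomato+ libraries. The GFP+ libraries all lay above the Tomato+ libraries, and the ratio of the means was 1.21. The nuclear genes of the respiratory chain, given below, had a ratio of 1.23 on the same measure. GFP- (34537) and Tomato- (32798) had sums above those of their positive populations. The large subunit genes summed to 1.98 to 2.35 times the small subunit genes, with the lowest ratio in GFP+ replicate 2 and the highest in Tomato-, and the ranges of this ratio in GFP+ (1.98 to 2.15) and Tomato+ libraries (2.14 to 2.27) overlapped. GFP- was the highest of the 8 libraries for 21 members and Tomato- for 20, while Tomato+ replicate 1 was the lowest for 19.

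The first question was which members differed between posterior, GFP+ cells and Tomato+ cells. All 75 averaged 10 or more normalized reads over these 6 libraries and were tested together with the other genes of the table (limma on log2(normalized reads + 1), Benjamini-Hochberg adjusted p under 0.05 over 16153 genes). GFP+ cells had higher levels of 20 members (26.7%), where 19.7% of all tested genes were higher. They had lower levels of 5 (6.67%), where 20% of all genes were lower, and 50 were not called. The higher members were Mrpl4, Mrpl16, Mrpl19, Mrpl21, Mrpl37, Mrpl38, Mrpl44, Mrpl45, Mrpl46, Mrpl47, Mrpl48 and Mrpl49 of the large subunit and Mrps2, Mrps5, Mrps7, Mrps23, Mrps25, Mrps26, Mrps27 and Mrps31 of the small subunit. The lower members were Mrpl20, Mrpl33, Mrpl52, Mrpl55 and Mrps28. The share called higher was thus near that of all genes, and the share called lower was below it. Scaling by reads outside the mitochondrially encoded genes shifted all genes by -0.13 on the log2 scale. It gave 13 members higher (17.3%, against 14.7% of all genes) and 6 lower (8%, against 24.8%).

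The median log2 fold change over the members was 0.28, against -0.01 over all tested genes, and the middle 50% of the members lay between -0.08 and 0.55. A positive log2 fold change was found for 52 members (69.3%), against 49.7% of all genes, and a negative one for 23, against 50.3%. The 3 GFP+ libraries lay above all 3 Tomato+ libraries for 26 members, where 27.2% of all genes did so, and below them for 9, where 27.4% did. With replicates 1 and 3 averaged, Mrpl44, Mrps7, Mrps5 and Mrpl37 were called higher, 8.89% of all genes being higher in that fit, no member was lower against 9.25% of all genes, and the median was 0.19. At an unadjusted limma p under 0.05, 2 members were lower and 10 higher in the averaged fit. The share of all genes at that threshold was not counted, so these counts are not read as a result about the members. The calls of the 21 called members besides Mrpl44, Mrps7, Mrps5 and Mrpl37 depended on counting replicates 1 and 3 as separate libraries.

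**Figure D1:**
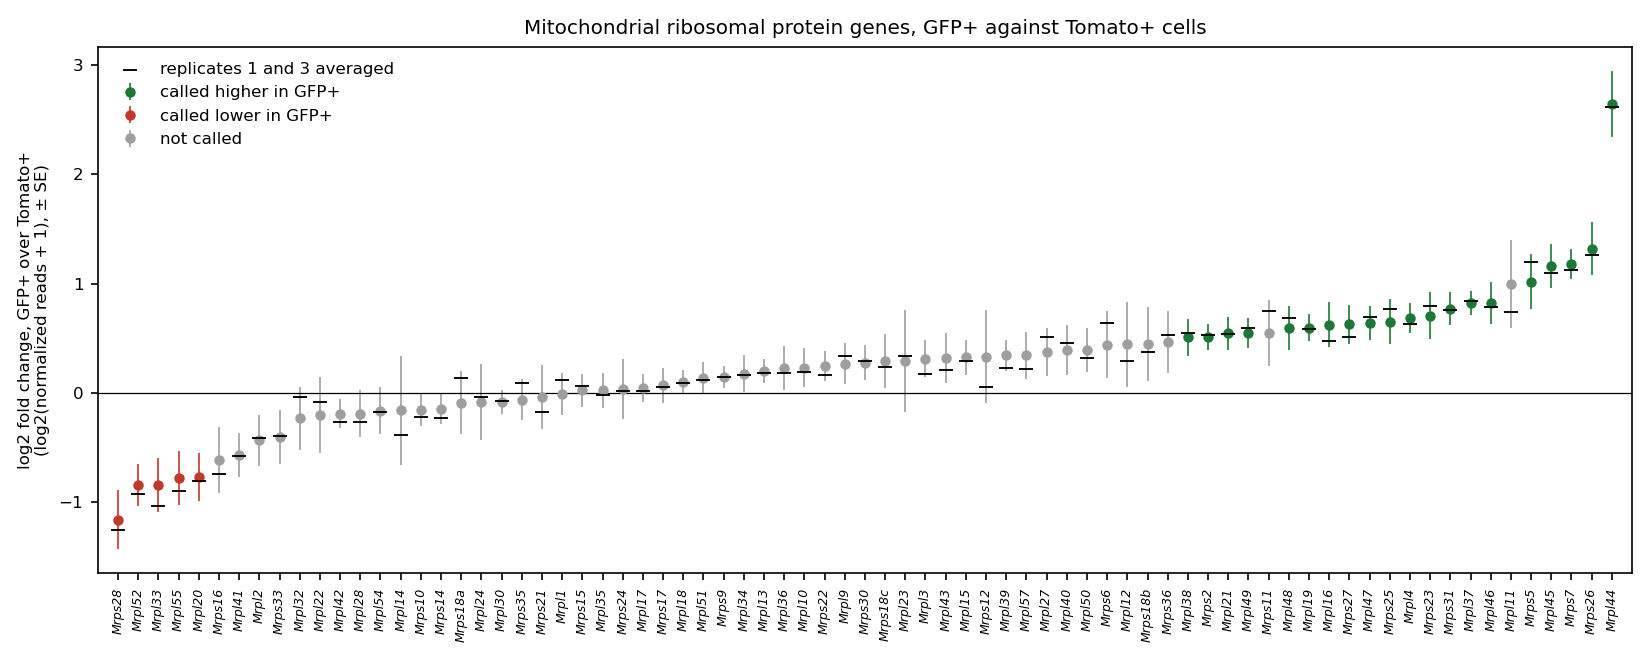
Log2 fold change of each of the 75 members, GFP+ over Tomato+ cells (y axis, on the log2(normalized reads + 1) scale), members ordered along the x axis by that value. Points are limma estimates with standard errors from 3 and 3 libraries, coloured by call (adjusted p under 0.05), and black dashes are the estimates with replicates 1 and 3 averaged; values run from -1.16 for Mrps28 to 2.64 for Mrpl44, with 20 called higher and 5 lower.

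The members with the largest called differences, described next, were chosen among those whose GFP+ and Tomato+ libraries did not overlap. Mrpl44, a large subunit protein related to RNase III whose defects cause cardiomyopathy in humans, had the largest difference. Its gene lies at chr1:79776018-79781445 (GENCODE M21 on GRCm38, plus strand). Its levels were 241, 348 and 257 normalized reads in the GFP+ libraries and 33.7, 59.5 and 41.7 in the Tomato+ libraries. Every GFP+ library was thus several-fold above every Tomato+ library, and the lone negative libraries, with 176 in GFP- and 181 in Tomato-, lay between the groups. The means of 282 ± 58.2 (SD, n = 3) and 44.9 ± 13.2 (SD, n = 3) gave a ratio of 6.27, and the log2 fold change was 2.64 ± 0.30 (SE, limma adjusted p = 0.000479, or 0.00192 with replicates 1 and 3 averaged).

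Mrpl45 (chr11:97315716-97329920, plus strand) encodes a protein near the exit of the nascent chain that helps hold the mitoribosome at the inner membrane. It had 340, 355 and 359 normalized reads in GFP+ cells and 125, 183 and 170 in Tomato+ cells. The groups did not overlap, GFP- (360) was at the level of the GFP+ libraries, and Tomato- (115) was below all Tomato+ libraries. The log2 fold change was 1.16 ± 0.20 (SE, limma adjusted p = 0.00318), and the call was lost with replicates 1 and 3 averaged (limma adjusted p = 0.0554 at a log2 fold change of 1.10).

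Mrpl37 and Mrpl46, large subunit proteins without a bacterial counterpart, were also higher. Mrpl37 (chr4:107055874-107066868, minus strand) had 976, 1057 and 957 normalized reads in GFP+ cells against 586, 568 and 537 in Tomato+ cells. The replicates of each group lay close together and the groups were far apart, with GFP- (995) at the GFP+ level and Tomato- (874) between. Mrpl37 had a log2 fold change of 0.82 ± 0.11 (SE, limma adjusted p = 0.000915, or 0.0239 with replicates 1 and 3 averaged). Mrpl46 (chr7:78775236-78783531, minus strand) had 236, 256 and 274 in GFP+ cells against 126, 161 and 147 in Tomato+ cells. The groups again did not overlap, and Tomato- (222) lay above every Tomato+ library. Mrpl46 had a log2 fold change of 0.82 ± 0.20 (SE, limma adjusted p = 0.0125), and the averaged fit gave 0.78 with a limma adjusted p of 0.215, and the call was lost without GFP+ replicate 3 or Tomato+ replicate 1. Among the other large subunit members called higher, Mrpl48 had the highest adjusted p and lost its call without any of 5 of the 6 libraries, Tomato+ replicate 2 being the exception (limma adjusted p = 0.0481, log2 fold change 0.59).

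In the small subunit, the largest differences were those of Mrps26, Mrps7 and Mrps5. Mrps7 (chr11:115603925-115608036, plus strand) is the counterpart of a bacterial protein that binds early to the small ribosomal RNA, and had 662, 655 and 694 normalized reads in GFP+ cells against 280, 337 and 273 in Tomato+ cells. The groups were clearly separate, and GFP- (577) and Tomato- (220) each lay below their positive libraries. For Mrps7 the log2 fold change was 1.18 ± 0.14 (SE, limma adjusted p = 0.000583, or 0.0132 with replicates 1 and 3 averaged). Mrps26 (chr2:130563742-130568695, plus strand), a protein without a bacterial counterpart, had 216, 171 and 219 against 69.2, 77.9 and 94.2. The groups did not overlap, and each negative library (217 and 81.5) lay within the range of its positive population. The log2 fold change was 1.32 ± 0.24 (SE, limma adjusted p = 0.00431), and the averaged fit gave a limma adjusted p of 0.0991 at 1.26.

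Mrps5 (chr2:127587222-127606829, plus strand), counterpart of a bacterial protein at the messenger RNA entry, had 1158, 1320 and 1207 normalized reads in GFP+ cells and 778, 389 and 734 in Tomato+ cells. Every GFP+ library lay above every Tomato+ library, but Tomato+ replicate 2 stood well below the other Tomato+ libraries and close to Tomato- (441). This gave a log2 fold change of 1.02 ± 0.25 (SE, limma adjusted p = 0.0146), or 1.20 with replicates 1 and 3 averaged (limma adjusted p = 0.00609). The call was lost without GFP+ replicate 2 (limma adjusted p = 0.0504). Mrps31 (chr8:22411361-22429665, plus strand), without a bacterial counterpart, had 673, 805 and 686 against 386, 490 and 394. The groups did not overlap, and Tomato- (231) was far below the Tomato+ libraries. For Mrps31 the log2 fold change was 0.77 ± 0.15 (SE, limma adjusted p = 0.00519), and 0.0693 was the limma adjusted p of the averaged fit at 0.76.

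**Figure D2:**
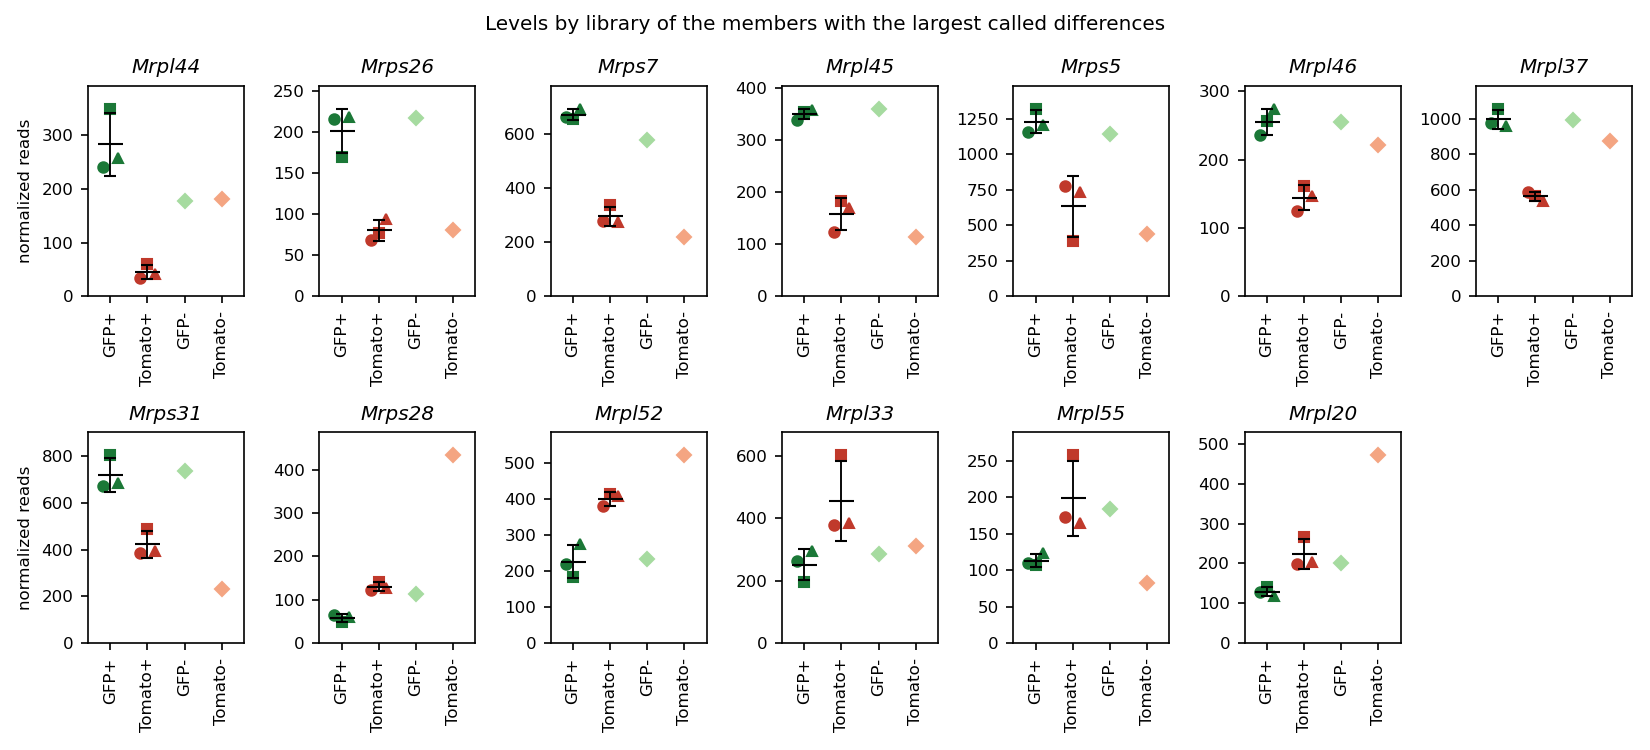
Levels in normalized reads (y axis, from 0, a scale of its own in each panel) of the 8 members with the largest called positive and the 5 with called negative differences, by population (x axis). Circles, squares and triangles are replicates 1, 2 and 3, diamonds are the lone negative libraries, and bars give mean ± SD of 3 libraries. Only members whose GFP+ and Tomato+ libraries did not overlap were eligible, so the absence of overlap was set by that choice. GFP- and Tomato- often lie apart from their positive populations.

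The 5 members lower in GFP+ cells included 1 of the small and 4 of the large subunit. Mrps28 (chr3:8802146-8923918, minus strand), the mitochondrial relative of bacterial ribosomal protein S1, had 65.1, 47.9 and 60.6 normalized reads in GFP+ cells against 121, 142 and 127 in Tomato+ cells. The groups did not overlap, and Tomato- stood far above them with 433, while GFP- had 113. The log2 fold change was -1.16 ± 0.27 (SE, limma adjusted p = 0.0118), and without Tomato+ replicate 3 the limma adjusted p was 0.0551.

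Mrpl52 (chr14:54426909-54429756, plus strand), without a bacterial counterpart, had 219, 183 and 274 normalized reads against 379, 413 and 406. The GFP+ libraries were the more spread of the groups, yet all lay below the Tomato+ libraries. The log2 fold change was -0.84 ± 0.19 (SE, limma adjusted p = 0.0101). Mrpl33 (chr5:31596935-31664384, plus strand), one of the smallest proteins of the large subunit, had 262, 195 and 293 against 377, 602 and 383, with Tomato+ replicate 2 far above the others. Its log2 fold change was -0.84 ± 0.24 (SE, limma adjusted p = 0.0271). The call was lost without GFP+ replicate 1 or 2, up to a limma adjusted p of 0.0643.

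Mrpl55 (chr11:59202486-59206134, plus strand) had 109, 107 and 123 normalized reads in GFP+ cells against 173, 258 and 164 in Tomato+ cells, again with a high Tomato+ replicate 2. Its log2 fold change was -0.78 ± 0.25 (SE, limma adjusted p = 0.0397). Mrpl20 (chr4:155802878-155809975, plus strand), counterpart of a bacterial assembly protein of the large subunit, had 129, 141 and 118 against 198, 266 and 204. Its log2 fold change was -0.77 ± 0.22 (SE, limma adjusted p = 0.0243). In both genes the groups did not overlap, and both calls were lost without GFP+ replicate 1 or 3 or Tomato+ replicate 1 or 3, and that of Mrpl55 also without GFP+ replicate 2, up to limma adjusted p values of 0.119 for Mrpl55 and 0.0966 for Mrpl20. With replicates 1 and 3 averaged, limma adjusted p values of the 5 lower members were between 0.0529 (Mrpl33) and 0.229 (Mrpl20), at log2 fold changes of -0.80 to -1.26.

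Several members with well-known roles were not called. Mrpl3 and Mrps22, whose defects cause cardiomyopathy in humans, had log2 fold changes of 0.31 ± 0.17 and 0.25 ± 0.14 (SE). Mrpl3 had 1308, 936 and 1282 normalized reads in GFP+ cells against 850, 1104 and 872 in Tomato+ cells, and the groups overlapped through replicate 2 of each. Mrps22 had 804, 716 and 807 against 626, 759 and 583, overlapping likewise. Mrpl40, which lies next to Hira and in humans in the region deleted in DiGeorge syndrome, had 167, 236 and 165 against 133, 150 and 145. These groups did not overlap, and the log2 fold change was 0.39 ± 0.23 (SE, limma adjusted p = 0.203).

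Mrpl12, the stalk protein that contacts translation factors, was among the least abundant members, with 54.1, 50.7 and 70.5 normalized reads against 47.3, 55.2 and 28.8. The groups overlapped, and GFP- (120) was above all of them. Mrps12, the decoding centre protein, had 110, 90.3 and 102 against 61.9, 156 and 52.5, with Tomato+ replicate 2 above all GFP+ libraries. Mrps36, named for the ribosome but since found to be a component of the oxoglutarate dehydrogenase complex, had 87.0, 87.6 and 84.8 against 64.6, 52.4 and 71.2. The groups did not overlap, but the difference was not called (log2 fold change 0.47 ± 0.28 SE, limma adjusted p = 0.225).

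The members of the S18 family, of which Mrps18a is built into the large subunit and Mrps18b and Mrps18c into the small one, were not called either. Mrps18c had 175, 127 and 202 normalized reads against 134, 120 and 151, and Mrps18b had 108, 65.4 and 74.9 against 73.7, 58.0 and 48.2. In both pairs of groups the ranges overlapped. Mrps18a had 181, 315 and 172 against 255, 180 and 257, so replicate 2 went against the other replicates in both groups and its log2 fold change of -0.09 had no stable sign. Mrps30, another large subunit protein in spite of its name, had 469, 598 and 468 against 395, 476 and 393, which overlapped by a narrow margin (log2 fold change 0.28 ± 0.16 SE).

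Of the most abundant members per kilobase, Mrpl18 had a log2 fold change of 0.10 ± 0.11 (SE), Mrpl34 of 0.18 ± 0.17 and Mrpl39 of 0.34 ± 0.15, and none was called. Mrpl18 changed sign (-0.03) when libraries were scaled by reads outside the mitochondrially encoded genes. Mrpl23, the least abundant per kilobase, had 95.1, 47.9 and 92.5 normalized reads against 86.5, 34.0 and 77.0, with replicate 2 low in both groups. It had a log2 fold change of 0.29 ± 0.47 (SE) that fell to -0.12 without Tomato+ replicate 2. In Mrpl11 the same replicate stood out, with 617 normalized reads against 204 in each of the other Tomato+ libraries and 596, 606 and 565 in GFP+ cells. This member, singled out after its values were seen, had a log2 fold change of 0.99 ± 0.40 (SE) and was not called (limma adjusted p = 0.0823).

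Both subunits held members called in either direction. Of all tested genes 19.7% were higher and 20% lower. Of 49 large subunit members 12 were higher and 4 lower (24.5% and 8.16%, median log2 fold change 0.27). Of 25 small subunit members 8 were higher and 1 lower (32% and 4%, median 0.29). Of the 46 members with a bacterial counterpart 8 were higher and 4 lower (17.4% and 8.7%, median 0.16). Of the 28 without one 12 were higher and 1 lower (42.9% and 3.57%, median 0.39). With replicates 1 and 3 averaged, 2 members were higher and 0 lower in each class, with and without a bacterial counterpart, as in each subunit. In that fit 8.89% of all genes were higher and 9.25% lower. The classes differ in size, and counts this small cannot show whether their shares differ. The highest median, 0.63, was that of the 9 small subunit members without a bacterial counterpart, of which Mrps23, Mrps25, Mrps26, Mrps27 and Mrps31 were higher and none lower. In the averaged fit limma called none of these 9. Of them 2 had an unadjusted limma p under 0.05, and the share of all genes at that threshold was not counted. These differences between classes were not tested.

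Of the ribosomal RNAs that the proteins bind, only the smaller was called. The small subunit RNA mt-Rnr1 was higher in GFP+ cells (log2 fold change 1.08 ± 0.15 SE, limma adjusted p = 0.00113), with 3793673 to 5103206 normalized reads in GFP+ libraries and 1878935 to 2299465 in Tomato+ libraries. The large subunit RNA mt-Rnr2 was not called (-0.27 ± 0.24 SE, limma adjusted p = 0.403), with 5747373 to 8565956 against 6666764 to 11080355. Libraries of amplified total RNA do not measure ribosomal RNA as they measure messenger RNA, so these levels are not set against those of the members. Of 5 mitoribosomal proteins with other symbols only Ptcd3, a small subunit protein, was higher (log2 fold change 0.48 ± 0.09 SE, limma adjusted p = 0.0053), and its call was lost with replicates 1 and 3 averaged (limma adjusted p = 0.0549 at 0.50).

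Other lists of mitochondrial gene expression are set beside the members, of which 26.7% were higher and 6.67% lower. Of all tested genes 19.7% were higher and 20% lower. The share called higher was 66.7% in the regulators of mitochondrial biogenesis and 36.4% in transcription and RNA stability, both above that of the members. It was 7.14% to 10.5% in the other lists. Of 25 genes for mitoribosome assembly and RNA modification 2 were higher and 0 lower, with a median log2 fold change of 0.08. Of 14 mitochondrial translation factors 1 was higher and 3 were lower (median -0.26), and of 19 mitochondrial aminoacyl-tRNA synthetases 2 were higher and 1 lower (median 0.17). Of 11 genes for mitochondrial transcription and RNA stability 4 were higher and 1 lower (median 0.03), and of 9 regulators of mitochondrial biogenesis, the ETS factor Gabpa (log2 fold change 0.55) and Yy1 (0.78) among the higher ones, 6 were higher and 1 lower (median 0.55). Nrf1 was not called (-0.19). With replicates 1 and 3 averaged, no gene of these lists was lower, and the higher genes were 1 of assembly, 0 of the translation factors, 1 of the synthetases, 3 of transcription and 4 of the regulators, Gabpa and Yy1 still among them. In that fit 4 of the 75 members were higher, and 8.89% of all genes were higher and 9.25% lower.

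The 2 large groups most like the members went the other way in their medians, though not in their sums. Of 83 cytosolic ribosomal protein genes 24 were higher and 13 lower, with a median log2 fold change of -0.11. Of 78 nuclear genes of the respiratory chain 13 were higher and 20 lower, with a median of -0.19. With replicates 1 and 3 averaged, 10 were higher and 10 lower in the former and 5 and 7 in the latter, against 4 and 0 of the members. Summed, the respiratory chain genes came to 90252 to 101147 normalized reads in GFP+ libraries and 70672 to 84313 in Tomato+ libraries. The ratio of the means was 1.23, against 1.21 for the members. It was 1.06 for the cytosolic ribosomal protein genes, whose ranges overlapped, and 1.10 for all genes that averaged 100 or more, mitochondrial ribosomal RNAs included. The differences between these groups were not tested.

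**Figure D3:**
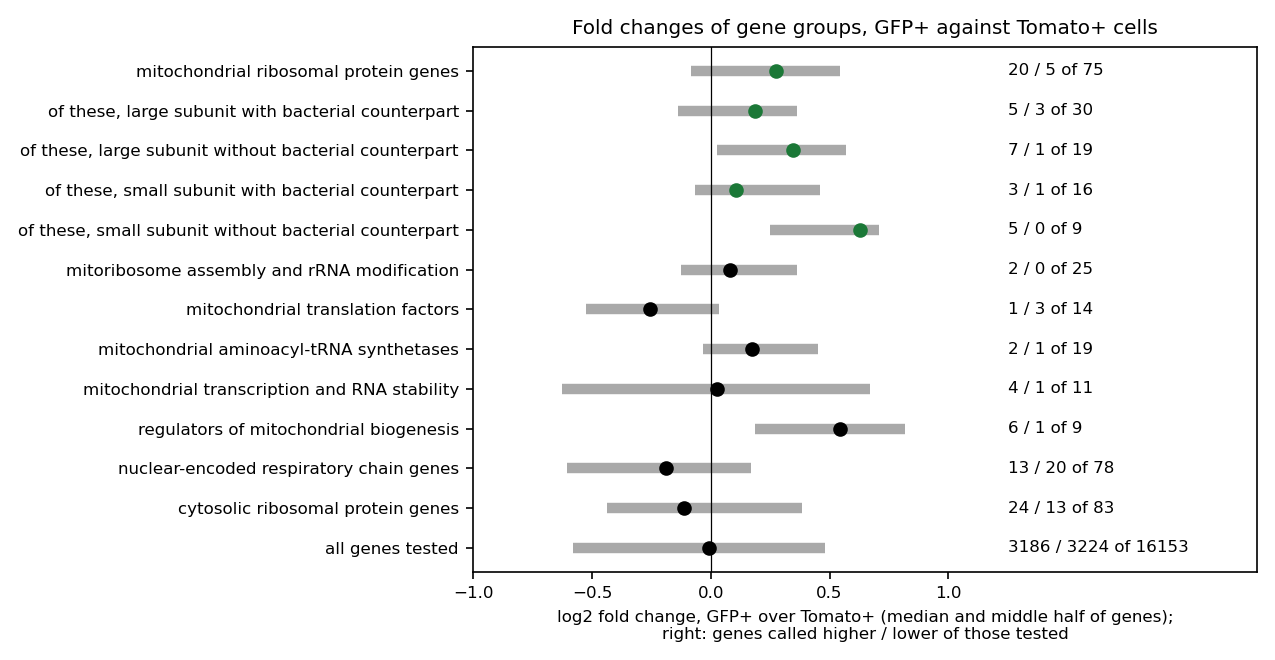
Log2 fold change of GFP+ over Tomato+ cells (x axis) for the members, 4 classes of members (green) and 8 other sets of genes (black); points are medians over genes, bars the middle 50% of genes, and the numbers at the right the genes called higher and lower of those tested. The members' median is 0.28, that of the cytosolic ribosomal protein genes -0.11, that of the nuclear respiratory chain genes -0.19 and that of all tested genes -0.01.

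The next question was how the members stood in reporter-positive cells relative to the negative cells of the same dissection. Each negative population was a single library, so these differences were not tested, and a member is said to stand apart if its level in the negative library was beyond that of each positive library by 1.5-fold or more, and the higher level was 50 normalized reads or more. No member was higher in GFP+ cells than in GFP- cells, where 9.37% of all genes were, and 4 were higher in GFP- cells, where 9.2% were. These were Mrpl12, Mrps28, Mrpl41 and Mrpl9. Mrpl12 had 120 in GFP- against 50.7 to 70.5 in GFP+ libraries, Mrpl41 had 228 against 123 to 133, and Mrpl9 had 441 against 249 to 281. The members' median log2 difference of GFP+ over GFP- was -0.15, against -0.01 over all genes.

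In the Mef2c-Cre line, 6 members were higher in Tomato+ than in Tomato- cells, where 14.7% of all genes were, and 13 were higher in Tomato- cells, where 13.9% were. Mrpl28, a large subunit protein with a bacterial counterpart, had 196, 311 and 245 normalized reads in Tomato+ cells and 72.5 in Tomato-, a ratio of 3.46 between the mean and the negative library. Mrps18a, Mrpl55 and Mrps35 followed, with ratios of 2.55, 2.43 and 2.29, and Mrps31 and Mrpl49 were the other members on this side. In the opposite direction Mrpl44 (181 in Tomato- against 33.7 to 59.5) had the highest ratio, 4.03, and Mrps16 (353 against 81.0 to 123) had 3.55. Mrps28 had a ratio of 3.34 and Mrpl2 (418 against 123 to 155) of 2.99. The median log2 difference of Tomato+ over Tomato- was -0.16, against 0.01 over all genes.

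The lines thus placed some members differently. Mrps28 was higher in the negative library of both lines, by a ratio of 1.95 to the mean in the GFP line. Mrpl44 was lower in Tomato+ than in Tomato- cells, while its GFP+ libraries lay 0.65 on the log2 scale above GFP-. Mrpl55 had 183 in GFP- against 107 to 123 in GFP+ cells and 81.5 in Tomato- against 164 to 258 in Tomato+ cells. With 1 negative library per line, the difference between lines was not tested.

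**Figure D4:**
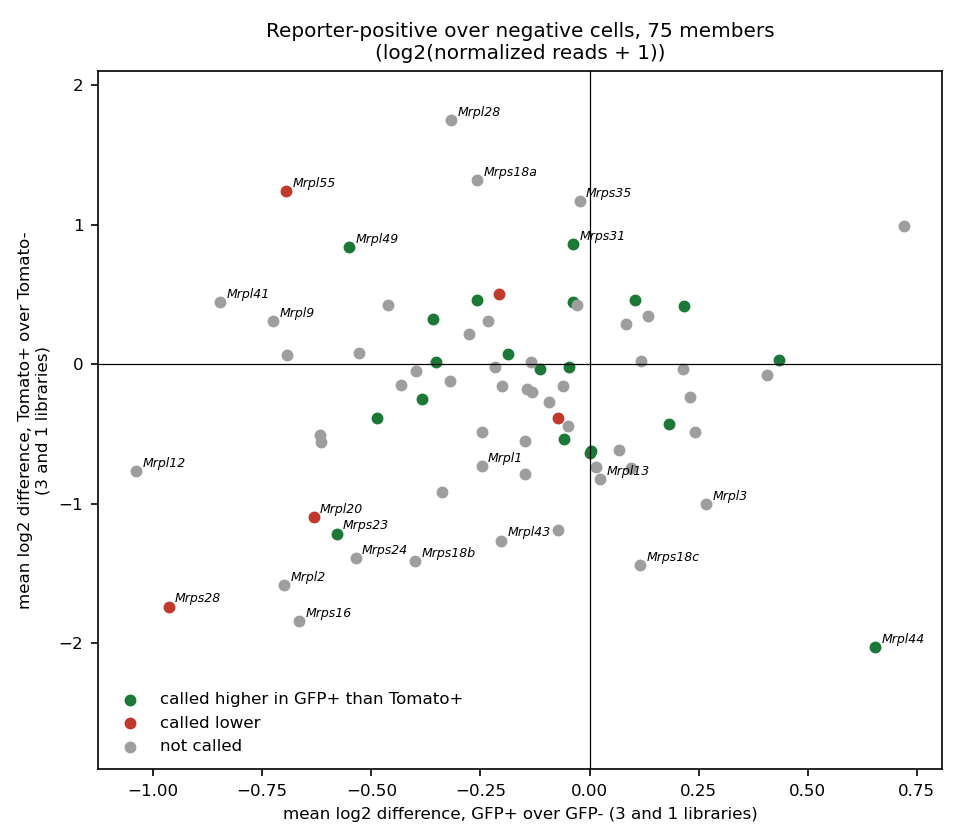
Mean log2 difference of GFP+ over GFP- (x axis) and of Tomato+ over Tomato- (y axis) for the 75 members, on the log2(normalized reads + 1) scale; each value rests on 3 positive libraries and 1 negative library. Colours give the call of GFP+ against Tomato+, and names mark members that stand apart in either line; Mrpl44 lies at 0.65 and -2.03 and Mrpl28 at -0.32 and 1.75.

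The negative libraries also differed from each other. Of the members, 22 were at least 1.5-fold higher in GFP- than in Tomato- cells, where 26.7% of all genes were, and 12 were higher in Tomato-, where 29.6% were. The median log2 difference of GFP- over Tomato- was 0.21, against 0.00 over all genes. The members' median thus had the same sign in cells without reporter as in the reporter-positive cells (0.28), and the part of the line in the latter was not tested.

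Many members start near a neighbour on the opposite strand. By GENCODE starts, which can differ from the RefSeq starts, a gene of the table started within 1000 bp on the opposite strand of 30 members. The starts lay up to 935 bp apart (Mrpl41 and Pnpla7). Of these 30 members 11 were higher in GFP+ cells and none lower (median log2 fold change 0.38), and of the other 45 members 9 were higher and 5 lower (median 0.18). Of all tested genes 19.7% were higher and 20% lower, and the share over all genes with such a neighbour was not counted. Most of the 11 also share exons with another gene, as given below, so both splits rest largely on the same higher members. Most neighbours of the 11 higher members were not called. Ptcd2 beside Mrps27 (log2 fold change 0.81) and Rab6a beside Mrpl48 (0.89) were higher, Ndufb5 beside Mrpl47 (-0.55) was lower, and the other 8 were not called. Wdfy1, whose exons overlap those of Mrpl44 by 126 bp, had means of 409 normalized reads in GFP+ and 526 in Tomato+ cells (log2 fold change -0.37, limma adjusted p = 0.0851), against the 2.64 of Mrpl44. Gga3 beside Mrps7 had 0.21, against 1.18 of Mrps7.

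Since the reads carry no strand, reads in shared exons cannot be assigned to a gene by strand. Exons of another gene of the table overlapped those of 23 members, from 8 bp in Mrps26 to 4590 bp, or 69.8% of the exons, in Mrps25, which overlaps Nr2c2. Of these 23 members 11 were higher and none lower (47.8% higher, median 0.55). Of the 52 without such overlap 9 were higher and 5 lower (17.3% higher, median 0.14). The values of overlapping members such as Mrps25, Mrpl19 (1962 bp with Gcfc2) and the pair Mrpl46 and Mrps11, which share 173 bp with each other, are uncertain to the extent of these exons. The part of the overlap in the higher share was not tested, and the share over all genes with such an overlap was not counted. Of the members with the largest differences, Mrpl45, Mrps5, Mrpl37 and Mrps31 had no such overlap.

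**Figure D5:**
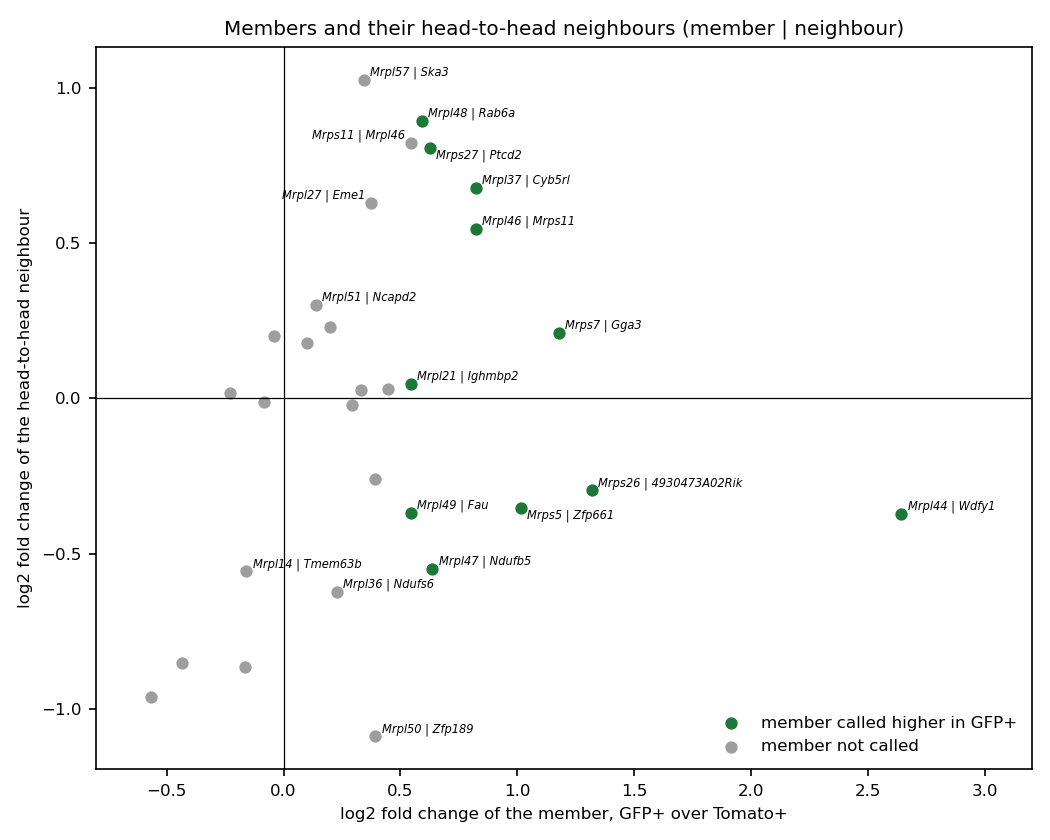
Log2 fold change (GFP+ over Tomato+) of the 30 members with a neighbour that starts within 1000 bp on the opposite strand (x axis) against that of the neighbour (y axis). Green points are the 11 members called higher, grey points those not called, and names are given for higher members and for called neighbours; Mrpl44 lies at 2.64 with Wdfy1 at -0.37. The pair Mrpl46 and Mrps11 appears as a point from each side.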

How the data were processed

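RNA from sorted cells of 8 samples was measured by RNA-seq. According to the labels and the study's methods, the authors used bcl2fastq 2.17.1.14 to separate the reads and STAR 2.5.2 to align them to mm10 (GRCm38), then HTSeq for counts per gene and DESeq2 for normalization. Another methods paragraph names RSEM, an Ensembl build and single-end reads for these cells, which conflicts with the labels, and the annotation used for counting is not given in the sources used here. The library columns of the deposited table hold a signal, the reads of a gene divided by a size factor per library, and the authors removed genes without expression. Multiplication by a factor per library gave whole reads for 100% of the values (within 0.01). The deposited table also holds the authors' log2 fold changes, a score (the test statistic) and p-values with their adjustment, which were not used. No column of samples was left unmapped (0 columns).

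GFP+ and Tomato+ libraries were compared on the log2(normalized reads + 1) scale by limma 3.58.1 with its trend option (R 4.3.3), without covariates, two-sided, for 16153 genes that averaged 10 or more, and with Benjamini-Hochberg adjustment over all of them. Fold changes are on this scale, which understates changes of low genes. The counts of calls were repeated with edgeR 4.0.16 and DESeq2 1.42.0 on the recovered reads and with other scalings, pseudocounts, filters and libraries. Lone negative libraries were compared without a test. Amplified reads are not independent molecules. Coordinates and exon lengths come from GENCODE M21, in which every member matched 1 gene, and promoters come from RefSeq.

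The members and gene lists were chosen with earlier results of these data known. Members were named by a rule: up to 8 higher and 8 lower called members with the largest log2 fold change, libraries that did not overlap and a group mean of 100 or more normalized reads, the 3 highest and 3 lowest per kilobase, up to 4 at each end of the comparisons with negative cells, and 14 by known role, of which Mrpl58 and Mrps34 are not analysed here. Large and small subunit membership and bacterial counterparts were assigned from general knowledge of the mammalian mitoribosome.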

Additional observations from a re-analysis of the deposited data

Results flagged for a closer look

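For 6 of the members named above, all positive libraries lay on one side of the negative library in the Hoxb1GFP line and on the other side in the Mef2c-Cre line. The mean log2 difference from the negative library was 0.65 in GFP+ and -2.03 in Tomato+ cells for Mrpl44, -0.04 and 0.45 for Mrpl45, -0.69 and 1.24 for Mrpl55, -0.85 and 0.45 for Mrpl41, -0.73 and 0.31 for Mrpl9, and -0.32 and 1.75 for Mrpl28. The difference between the lines was not tested, since each line has 1 negative library. Of all 75 members, 10 (13.3%) had such opposite directions, against 23.7% of all genes, so the share in the members was not above that of the table.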

How the results depend on the processing

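Pseudocounts of 0.5 and 8, no filter or a mean of at least 100, TMM and upper quartile scaling, edgeR and DESeq2 kept the counts of higher and lower members within 1.5 times of 20 and 5. With replicates 1 and 3 averaged, 4 members were higher and 0 lower, against 8.89% and 9.25% of all genes. Scaling by reads outside the mitochondrially encoded genes gave 13 higher and 6 lower, against 14.7% and 24.8% of all genes. The median fold change was then 0.14 (log2), and the members' median lay 0.28 above that of all genes under both scalings. Among the 52 members without exonic overlap, an alternative chosen after seeing the data, 9 were higher and the median was 0.14. Leaving out 1 library gave 10 to 27 higher and 2 to 6 lower members. Without Tomato+ replicate 2, 36% of members and 25.2% of all genes were higher. Without GFP+ replicate 1 the counts were 10 and 2 (13.3% and 2.67%, against 12.8% and 13.9% of all genes). Without GFP+ replicate 3 they were 10 and 3 (13.3% and 4%, against 12.8% and 13.95%). Without Tomato+ replicate 1 they were 11 and 3 (14.7% and 4%, against 14.1% and 13.2%). Without Tomato+ replicate 3 they were 13 and 2 (17.3% and 2.67%, against 14.1% and 13.25%). Fewer samples, and less alike ones, entered these fits. Libraries with the same replicate number in both groups had hardly correlated deviations (correlations 0.0228, 0.0150 and 0.0111). Replicate 2 was still the odd library of both groups. It had 39.1% (GFP+) and 41.7% (Tomato+) of reads on the mitochondrial ribosomal RNAs, against 31.4% to 32.4% in replicates 1 and 3. Whether libraries of the same number shared a preparation was not tested. A replicate block gave 15 higher and 3 lower, against 18.5% and 18.6% of all genes. Against GFP-, 0 members stood apart at 2-fold, 8 with the scaling outside mitochondrial genes and 11 without GFP+ replicate 2, against 4. Against Tomato-, 10 stood apart at 2-fold and 30 without Tomato+ replicate 2, against 19. The shares of all genes standing apart under these alternatives were not counted. These counts are therefore not read as a result about the members. Signs turned only in members that were not called: Mrpl18 (-0.033 with the scaling outside mitochondrial genes), Mrpl23 (-0.12 without Tomato+ replicate 2, up to 0.61 without GFP+ replicate 2), Mrps18a (0.14 with replicates 1 and 3 averaged, and from -0.37 without GFP+ replicate 2 to 0.071 without GFP+ replicate 3) and Mrps35 (0.089 averaged, and from -0.22 without Tomato+ replicate 2 to 0.028 without Tomato+ replicate 3). For the 34 named members, 515 of the repeated values kept direction and side of the threshold, 37 lost a call, 9 gained one and 10 turned.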

Other observations

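Among genes that averaged 300 or more normalized reads over the 6 positive libraries, 28 of 37 members had a positive log2 fold change (75.7%), against 56.7% of 8193 genes, and the medians were 0.25 and 0.09. Of these 37 members 12 were higher and 2 lower in GFP+ cells, where 27.9% of the 8193 genes were higher and 19.3% lower. At 1000 or more, all 4 members, Mrpl3, Mrpl13, Mrpl15 and Mrpl39, had a positive log2 fold change and none was called by limma, where 61.4% of 4220 genes had a positive log2 fold change and 33.5% were called higher. Of the 4, only Mrpl39 had an unadjusted p under 0.05 (limma, 0.0471 at a log2 fold change of 0.34).

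Replicate 2 differed from replicates 1 and 3 by a median of 0.26 on the log2 scale over the members in GFP+ cells and 0.31 in Tomato+ cells, regardless of direction, while replicates 1 and 3 differed by 0.08 in each. In Tomato+ cells the members lay on the whole higher in replicate 2, by a median of 0.15, against 0.00 over all tested genes.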
